A study of Danio rerio with 1109 samples.

Results

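The transcripts described here are those of the Csf1 signalling genes *csf1a*, *csf1b*, *il34* and *csf1ra*, taken by their symbols from a table of 32057 zebrafish genes, in which all 4 were found. Macrophage colony-stimulating factor (Csf1) and interleukin 34 are secreted ligands that share one receptor tyrosine kinase, Csf1r, and are known for keeping macrophages and their precursors alive, dividing and moving. In zebrafish the ligand and the receptor each exist as a pair of paralogs (*csf1a* and *csf1b*, *csf1ra* and *csf1rb*), and *csf1ra* is also required by xanthophores, the yellow pigment cells of the skin.

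Full-length single-cell RNA sequencing (Smart-seq2) was available for 1109 cells of embryo trunks at 48 hpf. Of these, 32.9% came from 1 plate of embryos with the *pdgfra:mCit* reporter (the *pdgfra* plate), and 33.1% and 34% came from plates of *vegfc:Gal4FF;UAS:GFP;kdrl:mCherry* embryos (*vegfc* plates 1 and 2). Trunks of both lines were dissociated only at the surface before single cells were sorted by reporter fluorescence, so deep tissues are thinly represented, and the labels do not tell which sort gate a cell of the *vegfc* line passed. No mutant or treatment was involved. The labels name neither embryo nor pool. Each plate therefore counted as 1 sample, no p-value was computed, and for the *pdgfra* line the line and the plate cannot be told apart.

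Cells were assigned to kinds by marker genes with at least 20 raw counts, none of them a Csf1 gene. A cell was called positive for a gene at the same 20 raw counts, after the 20 counts that the study used for active transcription. The study's methods also scale cells to a common total and do not say whether its 20 counts were raw or scaled. The gates gave 717 fibroblast-like cells (46.2% of them from the *pdgfra* plate, 28.03% from *vegfc* plate 1 and 25.8% from *vegfc* plate 2), 51 macrophage-like cells (10, 20 and 21 in the same order of plates), 21 neutrophil-like cells (1, 10 and 10), 55 neural-like, 40 epithelial-like, 26 muscle-like and 20 endothelial-like cells. A further 74 cells passed several gates, 98 passed none, and 24 cells had 20 or more counts of *gch2*, 7 of them without passing another gate. Gene counts per cell lay between 50045 and 782140, with medians of 279900, 302000 and 315200 in the *pdgfra* plate and *vegfc* plates 1 and 2. Of the gate genes themselves, *col1a1a* was at the threshold in 714 of the 717 fibroblast-like cells and *mfap4* in 50 of the 51 macrophage-like cells. *mmp13a* was in all 21 neutrophil-like cells because their gate asked for it. Such shares follow from the gates and give them no independent support. *col1a1a* also reached the threshold in 36 of the 51 macrophage-like cells, and the macrophage marker *c1qa* in only 9 of them. The reporter's own gene *pdgfra* was at the threshold in 502 of the fibroblast-like cells. Shares are given with exact Clopper-Pearson 95% intervals and summed levels as counts per 1000000 gene counts (CPM) with exact Poisson 95% intervals. The intervals of shares take cells as independent draws, and those of levels take reads as such. These reads carry no molecular identifiers and several can stem from 1 molecule, so the intervals of levels are too narrow. They also leave out the spread between cells, and neither interval covers that between embryos. Counts were not divided by transcript length, so levels are compared between cells and not between genes.

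**Figure D1:**
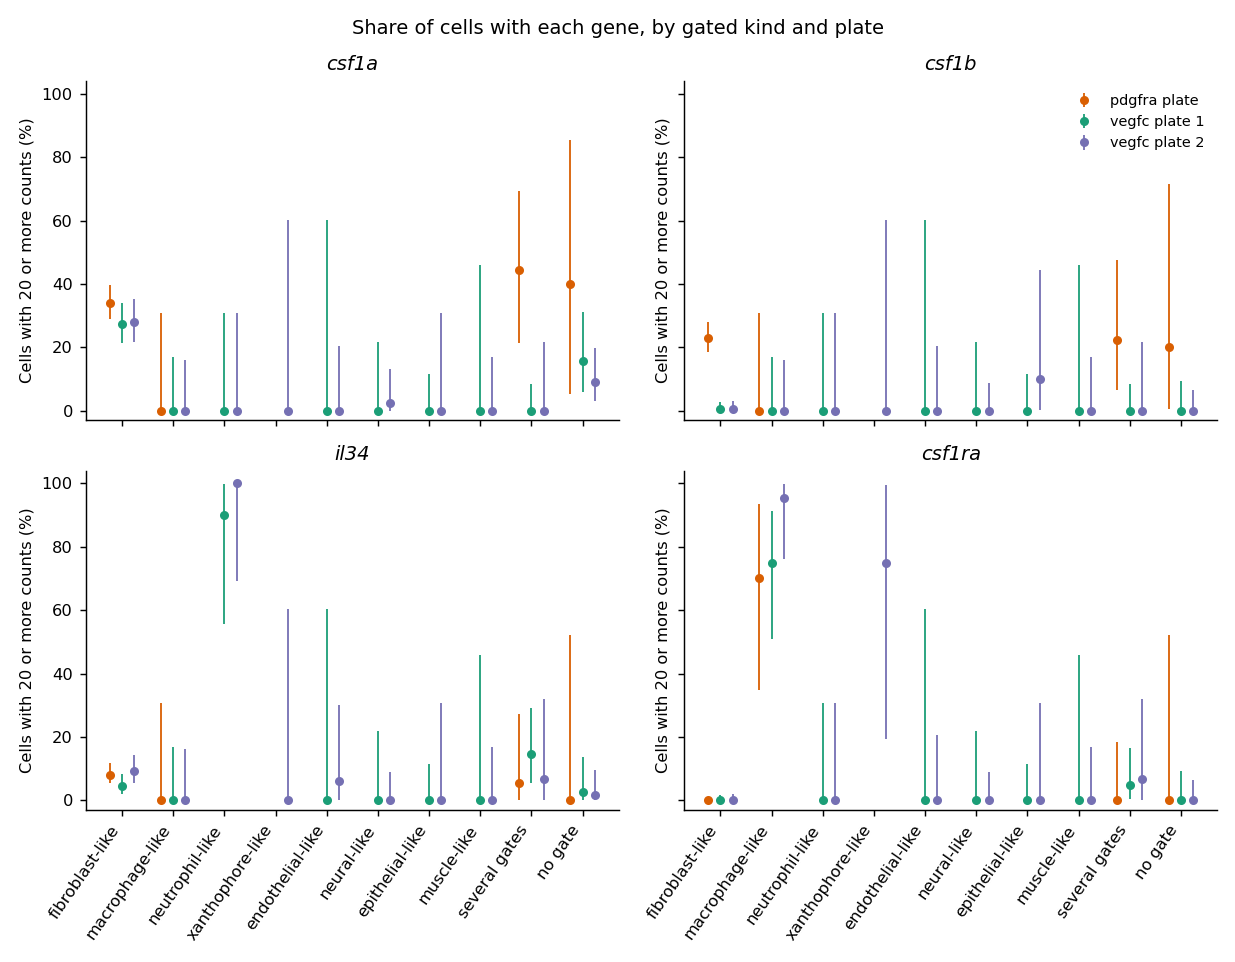
Percentage of cells with 20 or more raw counts of *csf1a*, *csf1b*, *il34* and *csf1ra* (y axes) in each gated kind (x axis) and plate (colours), for kinds with 4 or more cells in a plate. Points are shares and bars are exact 95% intervals. *csf1a* and *csf1b* stood in fibroblast-like cells and also in cells that passed several gates or none. The share of *il34* was highest in neutrophil-like cells, and that of *csf1ra* in macrophage-like and xanthophore-like cells.

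Of the ligands, *csf1a* was the one found most widely among fibroblast-like cells, and in none of the other kinds but 1 neural-like cell. It reached 20 counts in 220 of 717 fibroblast-like cells (30.7%, 27.3 to 34.2%), which were 90.9% of all positive cells. The share was 34.1% (29.04 to 39.5%) in the *pdgfra* plate, against 27.4% (21.3 to 34.1%) and 28.1% (21.8 to 35.2%) in *vegfc* plates 1 and 2. The intervals of the 3 plates overlapped, and the summed level over all fibroblast-like cells differed little between them, with 174.1 CPM (171.5 to 176.8) in the *pdgfra* plate 151.6 CPM (148.4 to 154.8) in *vegfc* plate 2 and an interval of 144.9 to 151.2 CPM in *vegfc* plate 1. Positive cells alone held a median of 443 CPM in the *pdgfra* plate, against 516 and 514 CPM in the *vegfc* plates, and at most 1515, 1570 and 1953 CPM. No macrophage-like, neutrophil-like, epithelial-like, endothelial-like or muscle-like cell was positive. For the 51 macrophage-like cells the exact interval allows a share of up to 6.98%. Their summed level was 1.65 CPM at a median depth of 389100 gene counts, against 281800 in fibroblast-like cells. A single neural-like cell was positive, with 73 counts. The remaining positive cells had no single kind: 8 had passed several gates, all of them among the 18 such cells of the *pdgfra* plate (44.4%), and 13 of the 98 cells that passed no gate were positive (13.3%, 66.3 CPM).

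Set against all other cells, the summed *csf1a* level of fibroblast-like cells was higher by 2.68 on the log2 scale of CPM + 1 (160.8 against 24.3 CPM), where 9.46% of the 18529 genes compared were 2-fold or more higher. By plate the log2 ratio was 0.38 in the *pdgfra* plate, against 3.01 and 3.30 in *vegfc* plates 1 and 2. In the *pdgfra* plate only 34 cells were not fibroblast-like, and 18 of them had passed several gates, with 212.5 CPM of *csf1a*.

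The paralog *csf1b* was found mainly in fibroblast-like cells of 1 plate. It was positive in 76 cells of the *pdgfra* plate (22.96%, 18.5 to 27.9%), against 1 cell in each *vegfc* plate (0.498%, 0.0126 to 2.74%, and 0.541%, 0.0137 to 2.98%). Summed levels were 214.6 CPM in the *pdgfra* plate, against 7.62 and 4.13 CPM in *vegfc* plates 1 and 2, and 1 cell carried 95.4% and 99.2% of the counts in the *vegfc* plates. The *pdgfra* plate was thus 28.2-fold and 51.9-fold above them (log2 4.64 and 5.39). Over all 18529 genes, *csf1b* had the second highest ratio when the smaller of the 2 ratios was ranked, beside 4.52% of genes that were 2-fold or more higher than in both *vegfc* plates. For *csf1a* the ratios were 0.23 and 0.20, and for *il34* 0.62 and -0.36. The median depths of fibroblast-like cells were 280300, 277400 and 291200 gene counts in the *pdgfra* plate and *vegfc* plates 1 and 2, and the part of depth in the difference was not tested. In the *vegfc* plates the only positive cell outside the fibroblast gate was 1 epithelial-like cell of plate 2, with 74 counts. In the *pdgfra* plate, 4 of the 18 cells that passed several gates were also positive for *csf1b* (22.2%, 301.7 CPM), and so was 1 of the 5 that passed no gate, with 508 counts. That plate held no neural-like, epithelial-like, muscle-like or endothelial-like cell. Whether *csf1b* was restricted to fibroblast-like cells could therefore not be judged there.

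Within the *pdgfra* plate, *csf1b* split fibroblast-like cells into a high and a low group. At 20 to 99 counts there were 21 cells and at 100 or more 55 cells, up to 921 counts, while 26 cells held none and the rest 1 to 18 counts. Counts below the threshold were also found outside the fibroblast gate, where all 10 macrophage-like cells of that plate held at least 1 count of *csf1b*, but at most 6, and summed to 10.8 CPM. Of the fibroblast-like cells, 92.2% held any count in the *pdgfra* plate, against 3.48% and 1.62% in the *vegfc* plates (7 and 3 cells). Shares at a threshold of 1 count therefore carry this low level, and its source was not tested.

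**Figure D2:**
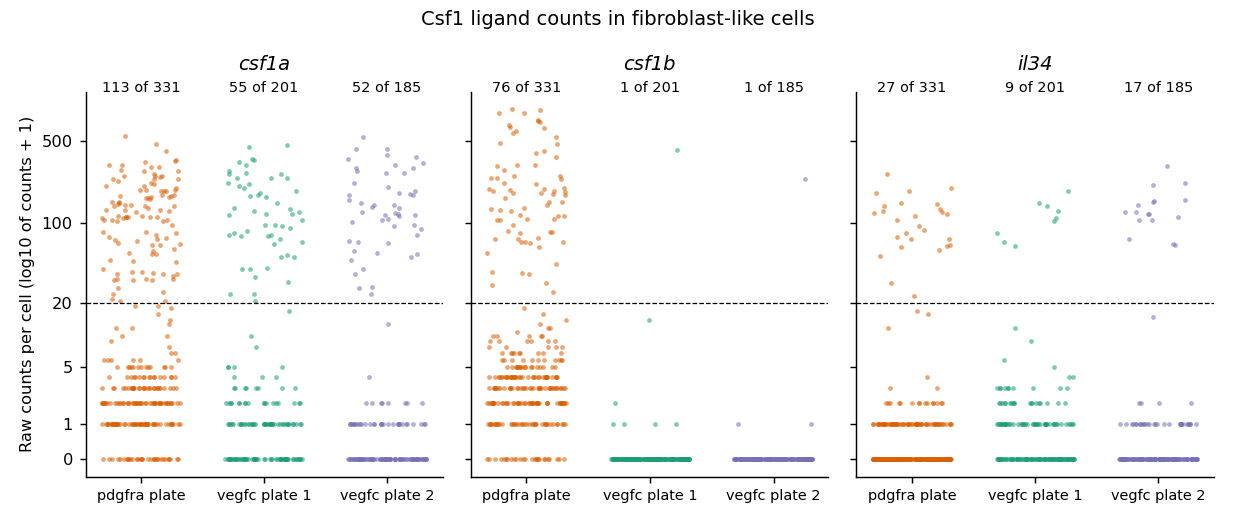
Raw counts per cell (y axis, log10 of counts + 1) of *csf1a*, *csf1b* and *il34* in the fibroblast-like cells of each plate (x axis). Each point is a cell, the dashed line marks 20 counts, and the numbers give the positive cells of all cells: 76 cells were positive for *csf1b* in the *pdgfra* plate (22.96%), against 1 cell in each *vegfc* plate.

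For *il34* the kind with the highest share and level per cell was a myeloid one. Of the 21 neutrophil-like cells 20 were positive (95.2%, 76.2 to 99.9%): the single cell of the *pdgfra* plate, with 1054 CPM, 9 of 10 in *vegfc* plate 1, and all 10 in the other plate of that line. The lowest, median and highest levels per cell were 0, 811 and 1778 CPM in *vegfc* plate 1 and 436, 1032 and 1884 CPM in *vegfc* plate 2. Neutrophil-like cells summed to 899.7 CPM (877 to 922), against 26.9 CPM in all other cells. This is a log2 ratio of 5.01 (4.94 in *vegfc* plate 1 and 5.25 in *vegfc* plate 2), beside 12.5% of genes that were 2-fold or more higher in this kind. No macrophage-like cell was positive (0 of 51, highest count 19).

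The neutrophil gate asked for all 6 of its markers, because *lyz*, *nccrp1*, *npsn* and *mpx* reached 20 counts in many cells of other kinds, *lyz* in 32.2% and *nccrp1* in 25.9% of the 717 fibroblast-like cells. Among the 25 cells with 6 markers, 4 of which passed another gate as well, 23 were positive for *il34* (92%). Among the cells with 3 to 5 markers it was 1 cell (0.971%), and among the 981 cells with 0 to 2 markers 60 cells (6.12%). The gate's number of markers was set with these *il34* values known, so they describe the gate and give it no independent support.

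**Figure D3:**
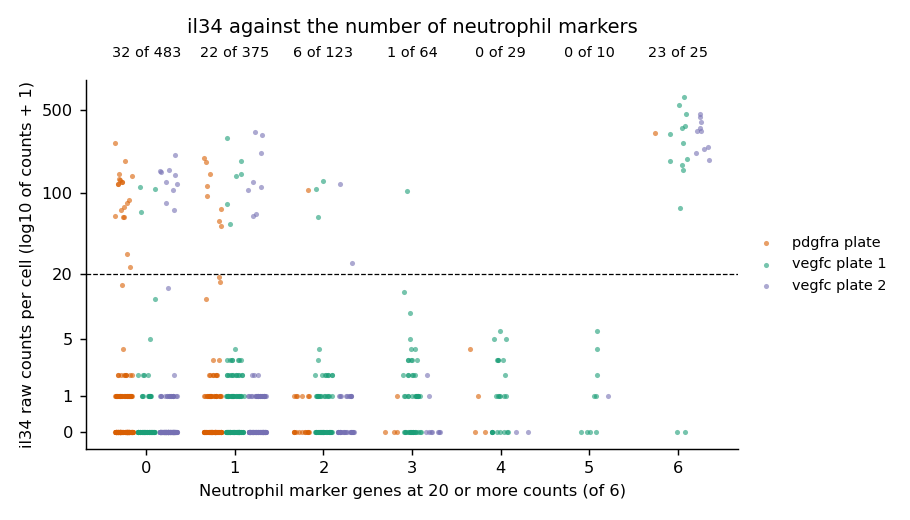
Raw *il34* counts per cell (y axis, log10 of counts + 1) against the number of the 6 neutrophil marker genes with 20 or more counts (x axis), for all 1109 cells, coloured by plate. The dashed line marks 20 counts and the numbers give positive cells of all cells: 23 of 25 cells with 6 markers were positive, and 1 of the cells with 3 to 5 markers (0.971%).

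Fibroblast-like cells, the most numerous kind, also held *il34*, and 53 of 717 were positive (7.39%, 5.59 to 9.56%). These were 27 cells of the *pdgfra* plate (8.16%), against 9 and 17 cells of *vegfc* plates 1 and 2 (4.48% and 9.19%), with overlapping intervals. Their summed levels were 32.3, 20.6 and 41.6 CPM, below the level of the neutrophil-like cells in every plate. Outside the fibroblast and neutrophil gates 3 cells were positive (0.993%). Across the series, fibroblast-like cells held 63.1% of the *il34*-positive cells and 43.7% of its counts, and neutrophil-like cells 23.8% and 40.7%.

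Any of the 3 ligands was found in 300 of 717 fibroblast-like cells (41.8%). The share was 53.8% (48.2 to 59.2%) in the *pdgfra* plate, against 29.4% (23.2 to 36.2%) and 34.1% (27.3 to 41.4%) in *vegfc* plates 1 and 2. Most of these cells had 1 ligand: 250 had 1, 49 had 2 and 1 had all 3. In the *pdgfra* plate, *csf1a* was positive in 29 of the 76 cells with *csf1b* (38.2%, 27.3 to 50.02%) and in 84 of the cells without it (32.9%, 27.2 to 39.1%), shares whose intervals overlap. There *csf1b* was found in 1 of the 27 cells with *il34* (3.70%, 0.0937 to 18.97%) and in 75 of the cells without it (24.7%, 19.9 to 29.9%). The intervals of this last pair do not overlap, but the first rests on 27 cells.

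The fibroblast-like cells were further divided by genes that mark trunk mesenchyme subtypes, each at 20 counts. *en1a* and *en1b* encode Engrailed factors, whose overlap with *vegfc* or *pdgfra* the study used as a landmark of fibroblasts at the horizontal myoseptum. Neither *vegfc* nor *pdgfra* was required here, so the cells with Engrailed can be a wider set. With *en1a* or *en1b*, 44.1% of cells were positive for *csf1a* (37.6 to 50.7%), and of the 481 cells with neither 24.1% (20.4 to 28.2%). By plate the shares were 51.3% against 24.5% in the *pdgfra* plate, 38.6% against 22.9% in *vegfc* plate 1, and 35% against 24.8% in *vegfc* plate 2. The shares with and without Engrailed overlapped in their intervals in both *vegfc* plates but not in the *pdgfra* plate. Summed levels were almost the same in the 3 plates: 321.7, 310.9 and 307.2 CPM with Engrailed, against 100.5, 98.3 and 97.1 CPM without, which are log2 ratios of 1.67, 1.65 and 1.65. Cells with Engrailed were the shallower ones, at a median of 243700 gene counts against 304500.

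At the other end, none of the 34 fibroblast-like cells with *foxf2a*, a forkhead gene of the mesenchyme around the gut, was positive for *csf1a*. The exact interval allows a share of up to 10.28%, against 220 of 683 cells without *foxf2a* (32.2%). The summed level was 1.47 CPM with *foxf2a* against 171.9 CPM without, although cells with *foxf2a* were deeper (median 399200 against 278300 gene counts). Of the 22 cells with both *jam2b* and *podxl*, genes of the mesothelium, 1 was positive for *csf1a* (4.55%) against 31.5% of the other 695, and 9 cells were shared by these 2 subsets. All of these cells came from the *vegfc* plates, 13 and 21 with *foxf2a* and 11 and 11 with *jam2b* and *podxl* in *vegfc* plates 1 and 2. They were not devoid of Csf1 receptor ligands, as *il34* was positive in 3 of 34 and 3 of 22 cells. With *tnmd*, which encodes the tendon protein tenomodulin, *il34* was positive in 9 of 52 cells (17.3%, 8.23 to 30.3%) and without it in 44 of 665 (6.62%, 4.85 to 8.78%), and *csf1a* in 15 of 52 (28.8%) and 30.8% of 665. The *il34* intervals overlap, and 42 of the 52 cells came from the *pdgfra* plate. There *il34* was positive in 16.67% (6.97 to 31.36%) of the cells with *tnmd*, against 6.92% (4.28 to 10.49%) of the others.

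**Figure D4:**
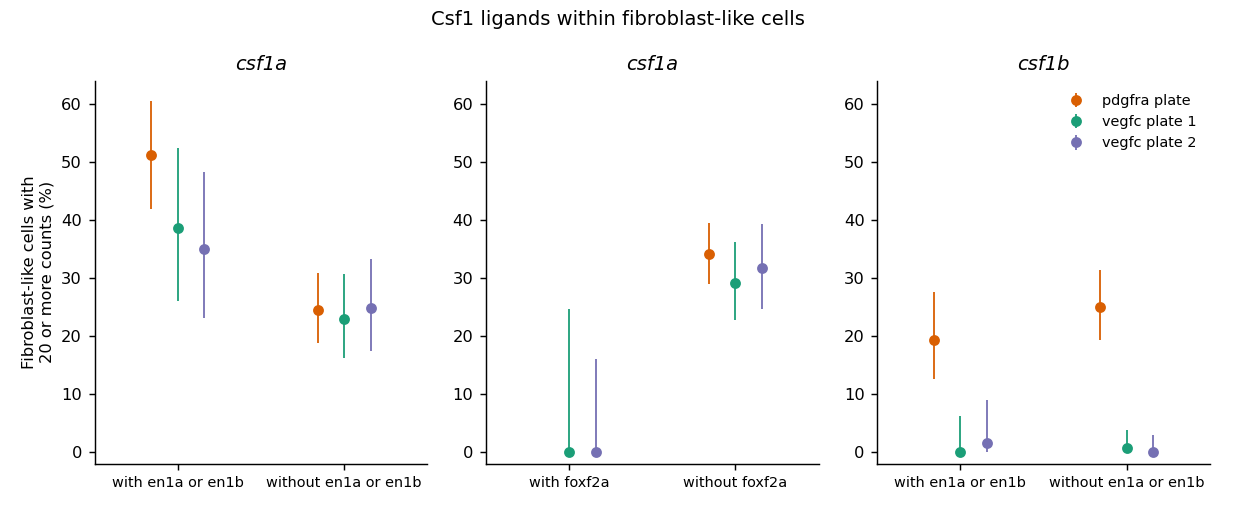
Percentage of fibroblast-like cells with 20 or more counts of *csf1a* (left and middle) or *csf1b* (right) among cells with and without *en1a* or *en1b*, or with and without *foxf2a* (x axes), by plate (colours, bars are exact 95% intervals). *csf1a* was positive in 51.3% of cells with Engrailed in the *pdgfra* plate, against 24.5% without, and in none of the 34 cells with *foxf2a*, which all came from the *vegfc* plates.

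The division by Engrailed did not single out *csf1b* in the plate that held it. There 23 cells with Engrailed were positive (19.3%, 12.7 to 27.6%) and 53 without (25%, 19.3 to 31.4%), with 126.2 against 258.7 CPM. With the chemokine gene *cxcl12b*, 1 fibroblast-like cell was positive for *csf1b* (0.813%), but 110 of the cells with *cxcl12b* came from the *vegfc* plates, and in the *pdgfra* plate it was 1 of 13 (7.69%, 0.195 to 36.03%) against 23.6% of the others. Cells with cell cycle genes carried *csf1b* as often as others in that plate (22.9% of 70 cells against 22.99% of the others). The actinotrichia genes *and1* and *and2* of the fin fold gave no division, since 96.98% of the fibroblast-like cells of the *pdgfra* plate passed that gate.

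Over the fibroblast-like cells of the *pdgfra* plate, the transcripts that went with *csf1b* most closely were *ntn1b* (Pearson's r = 0.45), which encodes the guidance protein netrin 1b, *RSPO2* (0.43), an R-spondin that strengthens Wnt signalling, and *CRABP2* (0.38), a carrier of retinoic acid. *RSPO2* reached 20 counts in 28.9% of the 76 cells with *csf1b*, against 1.96% of the cells without, and *ntn1b* in 64.5% against 20.4%. For *csf1a* they were *fgl1* (0.42), *fgl1b* (0.38) and *pdgfrl* (0.38), and *en1b* was among the first 8 (0.34). For *il34* the closest was the chemokine gene *cxcl18b* (0.27), found in all 27 cells with *il34* against 68.4% of those without. These are correlations across cells of 1 plate, which share library preparation and depth, over 7646 genes, and they were computed after the data had been seen.

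At 20 counts, no cell held the receptor *csf1ra* together with a ligand. Of all 1109 cells, 49 were positive for *csf1ra*, and none of them reached 20 counts of any ligand. Over all cells, 21.8% were positive for *csf1a*, 7.57% for *csf1b* and 7.57% for *il34*. The result depends on the threshold, as 1 macrophage-like cell held 19 counts of *il34*. After thinning (2 counts), *csf1a* was positive in 1, *csf1b* in 1 and *il34* in 2 of the 51 macrophage-like cells. No fibroblast-like cell was positive (0 of 717, where the exact interval reaches 0.513%), with at most 4 counts in a cell and 0.451 CPM in sum. No neutrophil-like cell was positive either (0 of 21, up to 16.11%).

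Macrophage-like cells held *csf1ra* in 42 of 51 cases (82.4%, 69.1 to 91.6%): 7 of 10 in the *pdgfra* plate, 15 of 20 in *vegfc* plate 1 and 20 of 21 in *vegfc* plate 2. The lowest, median and highest levels per cell were 0, 519 and 733 CPM in the *pdgfra* plate and 0, 267.5 and 652 CPM in *vegfc* plate 2, while cells of *vegfc* plate 1 held a median of 68.5 counts and at most 485 CPM, so the plates overlapped widely. Summed, macrophage-like cells had 275.1 CPM (267.8 to 282.6), against 3.32 CPM in all other cells. The log2 ratio was 5.998 (8.04, 5.35 and 5.60 by plate in the same order), with 0.313% of all genes above it, beside 13% of genes that were 2-fold or more higher in this kind. The 9 macrophage-like cells without *csf1ra* at the threshold had 0 counts in 6 cases and at most 6, at a median depth of 324400 against 395100 gene counts, and each carried at least 7 of the 11 macrophage markers.

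The paralog *csf1rb* was positive in 32 of the 51 macrophage-like cells, 6 of 10 in the *pdgfra* plate, 7 of 20 in *vegfc* plate 1 and 19 of 21 in *vegfc* plate 2. Both receptors were positive in 30 cells, *csf1ra* alone in 12, *csf1rb* alone in 2 and neither in 7. The plates of the *vegfc* line differed in this: of the *csf1ra*-positive cells, 6 of 15 also had *csf1rb* in plate 1 (40%, 16.3 to 67.7%) and 19 of 20 in plate 2 (95%, 75.1 to 99.9%), while median depths of macrophage-like cells were 413800 and 389100 gene counts. Among the 1058 cells not called macrophage-like, *csf1ra* was positive in 7 (0.662%) and *csf1rb* in 13 (1.23%). In 7 of the 98 cells that passed no gate *csf1rb* reached 46 counts or more, with 0 counts of *csf1ra* in each. Of these 7 cells, 6 had 20 or more counts of *cebpa*, a transcription factor of the early myeloid lineage, and 1 of *spi1b*. None reached 20 counts of *irf8*, *mafbb* or *runx1*, and they carried at most 2 macrophage and 4 neutrophil markers. The phosphatase gene *ptpn6* had 41 or more counts in some of them and at most 2 in the rest. For *csf3r*, the receptor gene of the granulocyte factor, it was 40 or more in some and at most 16 in the rest. *csf1ra* reached 20 counts in only 1 of the 1048 cells that neither passed the macrophage gate nor were called xanthophore-like below.

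**Figure D5:**
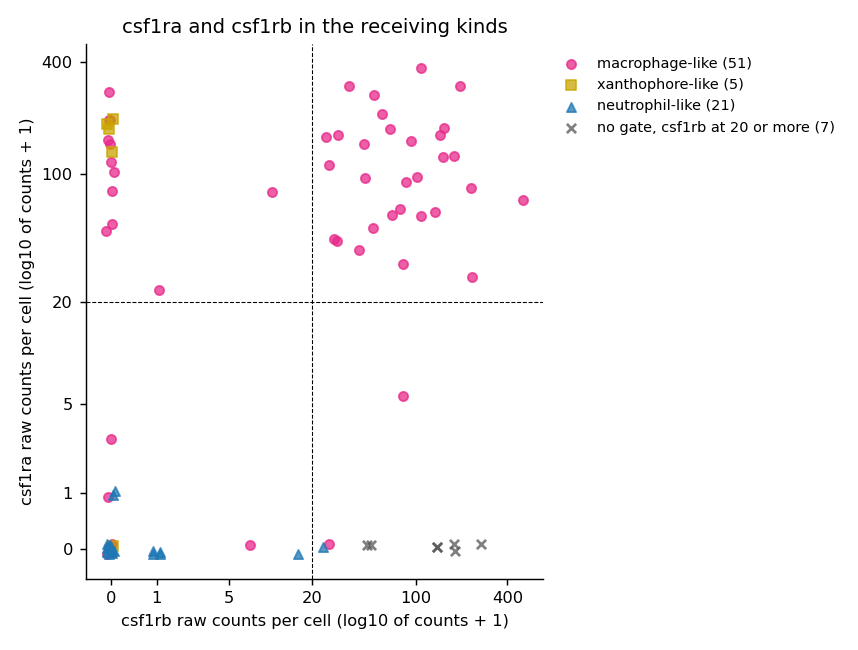
Raw counts of *csf1ra* (y axis) against *csf1rb* (x axis), both as log10 of counts + 1, in 51 macrophage-like, 5 xanthophore-like and 21 neutrophil-like cells and in the 7 cells with *csf1rb* that passed no gate. Dashed lines mark 20 counts, and points are moved slightly at random: 30 macrophage-like cells had both receptors, while 4 xanthophore-like cells had *csf1ra* with no count of *csf1rb*.

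Among the 24 cells with 20 or more counts of *gch2*, which encodes the GTP cyclohydrolase that starts pteridine pigment synthesis, 6 were positive for *csf1ra* (25%, 9.77 to 46.7%). These 24 cells were of 2 sorts. In 5 cells *gch2* lay between 1963 and 2342 counts, beside 935 to 1996 counts of *aox5* and 483 to 1142 of *slc2a15b*, further genes of xanthophore pigmentation. Each of the 5 carried 6 or more of 8 xanthophore genes outside the *gch2* gate. The 5 were set apart by having at least 5 of these 8 genes, so the genes give no independent support. That number was set with the *csf1ra* counts per kind known. The other 19 cells had a median of 61 counts of *gch2* and at most 3 of those genes, and 15 of them passed the fibroblast gate as well. They are called by their *gch2* counts alone, and the 5 cells xanthophore-like.

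The 5 xanthophore-like cells came from the *vegfc* line, 1 from plate 1 and 4 from plate 2. Their *csf1ra* levels were 352.6 CPM in the cell of plate 1 and 0, 365.9, 464.3 and 721.7 CPM in the cells of plate 2. Thus 4 of 5 were positive, and the cell without *csf1ra* had the highest *gch2* count, 2342. Their summed level was 338.3 CPM (313.5 to 364.6), against 16.8 CPM in all other cells (log2 ratio 4.26, beside 13.8% of genes that were 2-fold or more higher and 59.4% lower). The level of each cell lay within the range of macrophage-like cells. None of the 5 had a count of *csf1rb* or *csf1b*, and *spi1b* had at most 1 count. Another gene of the macrophage gate, *cd83*, was at the threshold in 3 of the 5 (81.4 CPM, against 619.3 CPM in macrophage-like cells). The iridophore gate gene *pnp4a* was at the threshold in 2 of them and the melanophore gate gene *tyr* in 1. No other gene of these gates was at the threshold in any of the 5. Of the 19 other cells, 2 were positive for *csf1ra*, a cell with 20 counts that passed the melanophore gate and a cell with 81 counts that passed the macrophage gate and had 531 counts of *spi1b*. None of the 9 *gch2* cells of the *pdgfra* plate was positive for *csf1ra*, and none of them was among the 5. Of these 9 cells, which had all passed several gates, 7 were positive for *csf1a* (404.4 CPM) and 4 for *csf1b* (587.7 CPM).

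Further genes of the pathway were taken from lists, counted as past a 2-fold ratio over all other cells. The counts stand beside the shares of all 18529 genes that were 2-fold or more higher, 9.46% in fibroblast-like, 13% in macrophage-like, 12.5% in neutrophil-like and 13.8% in xanthophore-like cells. In macrophage-like cells, 5 of 6 genes of signalling below the receptor were higher, with a median log2 ratio of 3.47 beside -0.94 over all genes, among them *ptpn6* (770 against 32.4 CPM), a phosphatase that dampens cytokine receptor signals, and *syk*, a kinase. In neutrophil-like cells, which lacked *csf1ra* at the threshold, 5 of the 6 were higher as well. In the 5 xanthophore-like cells none was higher and 5 were lower, in a comparison where 59.4% of all genes were lower. Of the myeloid transcription factors, 7 could be compared, but *mafbb*, *irf8* and *spi1b* had been used in the macrophage gate. The other 4 were all higher in macrophage-like cells. In neutrophil-like cells 4 of the 7 were higher and 2 lower, and in xanthophore-like cells none was higher. The 2 lower ones, *irf8* and *mafbb*, are genes of the macrophage gate. Signalling genes and factors were lower in fibroblast-like cells in 5 of 6 and 6 of 7 cases, beside 26.2% of all genes, and none was higher. Cells that passed the macrophage or neutrophil gate could not be fibroblast-like, and the 7 factors include *mafbb*, *irf8* and *spi1b*. Their lower level therefore follows in part from the gates and gives no independent support.

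Macrophage-like cells were themselves the place of another colony-stimulating factor. *csf3a* and *csf3b*, which encode the granulocyte factor, were at 20 counts in 28 and 45 of the 51 cells, with 226.5 and 1451 CPM, against 1.71 and 17.3 CPM in all other cells. Their receptor gene *csf3r* was positive in 22 of 51 macrophage-like cells (log2 ratio 4.66) and in 11 of 21 neutrophil-like cells (4.05). Of 4 related ligands only *kitlga*, a ligand of Kit receptors, was higher in fibroblast-like cells (109.2 against 30.3 CPM). Of 5 attractants, fibroblast-like cells had higher *cxcl12a* (log2 ratio 2.54) and *cxcl12b* (3.56), and macrophage-like cells had higher *cxcl8a* (5.24). None was higher in neutrophil-like or xanthophore-like cells. Lower were 2 of the 5 in fibroblast-like and 3 in macrophage-like cells, beside 26.2% and 48.4% of all genes. All 5 were lower in neutrophil-like and 4 in xanthophore-like cells, beside 56.1% and 59.4%. With 5 genes, such counts cannot be told from the shares over all genes. Of the genes of other receptors reported for interleukin 34 in mammals, *ptprz1b*, a receptor-type protein phosphatase, was the only one compared, and its log2 ratio was -2.86 in fibroblast-like, -1.29 in macrophage-like and 0.80 in xanthophore-like cells. Of 3 further receptor genes compared, *csf1rb* and *csf3r* were higher in macrophage-like cells and *pdgfrb* in fibroblast-like cells (2.25).

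Over the 19 combinations of kind and plate with at least 10 cells, the summed level of *csf1ra* was followed most closely by *shtn2*, *ccr12a*, *ccr2*, *lgals3bp.3* and *lgals3bp.2* (Pearson's r between 0.993 and 0.997), 2 of which encode chemokine receptors. For *csf1a* they were *PRRX1* (0.96), a mesenchymal homeobox gene, *col6a4a*, *ndp*, *ZIC2* and a gene known only by its clone (0.93). For *il34* they were *AQP3* (0.89), *MAP3K15*, *CSGALNACT1*, *cd28l* and *pld7* (0.86). For *csf1b* they were *5S_rRNA* (0.88), *C3H16orf89*, *nnt2*, *adamts2a* and *NPY1R* (0.85). With a minimum of 5 instead of 10 cells, 0 of the 5 closest genes were shared for *csf1ra* and for *csf1b*, 2 for *csf1a* and 3 for *il34*, so the lists depend on which groups of cells enter. The points share plates and depth, and xanthophore-like cells were too few to enter.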

How the data were processed

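Single cells of zebrafish trunks were sequenced after Smart-seq2, and the authors deposited raw read counts per gene and cell for 3 plates. Per the methods, reads were trimmed with trim galore, mapped to GRCz11 with TopHat2 and Bowtie2, freed of what the methods call doublets with samtools, and counted with featureCounts. The deposited counts were neither normalised nor divided by gene length, and strand use in counting is not given in the sources used here. Gene totals per cell excluded 92 spike-ins and 2 reporters. The cell filters of the methods, a minimum of 50000 counts, more than 1500 genes, no more than 10000 genes and no more than 10% spike-in counts, removed no cell, and no doublet caller was run beside the 1 cell a well. No sequence or position is given.

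Identifiers were named by a table for 28988 of 32057 genes and by 1054 pairs of the study's source data, and names in capitals were accepted for listed genes. Of 135 listed markers and pathway genes, 20 were not matched and were not used. Genes named in the text are the 4 members, *csf1rb*, gate markers, pathway lists and the 5 genes most like each member among genes with 300 or more counts in 3 or more cells. The genes alike within the *pdgfra* plate and the cells with *csf1rb* that passed no gate were chosen after their values were seen.

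Members and lists were chosen with earlier results of these data known. A gate needed 3 markers at 20 counts, but 5 of 11 for macrophages, 6 of 6 for neutrophils and 4 for epithelial cells, and macrophage and neutrophil gates took precedence over the fibroblast gate. These numbers were set after the marker counts and the members' counts per kind had been seen, as was the demand of 5 xanthophore genes. CPM are counts summed over cells per 1000000 gene counts, log2 ratios used a pseudocount of 1 CPM, and both were computed with Python 3.11.15, numpy 2.4.6, pandas 2.3.3 and scipy 1.17.1. The log2 ratio and the correlation were tested on simulated data. Alternatives were other thresholds, thinning of each cell to 50000 counts, other gates, pseudocounts and totals, means per cell, and leaving out each plate.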

Additional observations from a re-analysis of the deposited data

Results flagged for a closer look

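*csf1b* in fibroblast-like cells over all other cells had a log2 ratio of -0.073 in the *pdgfra* plate, against 2.84 and 1.23 in *vegfc* plates 1 and 2, so the signs differed between the lines. The difference was not tested. In the *vegfc* plates the ratio rests on 1 positive fibroblast-like cell each, and in *vegfc* plate 2 also on 1 epithelial-like cell with 74 counts on the other side. In the *pdgfra* plate the other cells numbered 34, of which 18 had passed several gates and 4 of these were positive. Among its 5 cells that passed no gate, 1 was positive, with 508 counts.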

How the results depend on the processing

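No paired analysis was possible because the labels give no replicate numbers and no test was run. The number of cells in a kind limits every share, most of all for the 5 xanthophore-like and 21 neutrophil-like cells. No direction was reversed under any alternative. Thresholds moved the shares of fibroblast-like cells: at 1 count 73.6% had *csf1a*, 43.9% *csf1b* and 36.7% *il34*, at 50 counts 25.5% had *csf1a*, and after thinning (2 counts) 35.98% had *csf1a* and 16.04% *csf1b*. *csf1a* among cells with *csf1b* was 89.8% at 1 count and 50.4% after thinning. Leaving out 1 plate gave 0.518 to 14.9% for *csf1b*, the lowest without the *pdgfra* plate, and 90.9 to 100% for *il34* in neutrophil-like cells. The same gave 43.9 to 145.6 CPM for *csf1ra* in all *gch2* cells (81.7 CPM after thinning).

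With 3 markers for every gate and no precedence, an alternative added after seeing the data, 14 of 14 macrophage-like cells (100%) had *csf1ra*, and 18 of 24 neutrophil-like cells (75%, 711 CPM) had *il34*. That setting left only 14 macrophage-like cells of the 51, and most *csf1ra*-positive cells (31) then passed several gates, as did 12 *il34*-positive cells. In the 5 xanthophore-like cells, leaving out 1 plate gave a *csf1ra* share of 75 to 100% and log2 ratios of 4.08 to 4.60. The ratio was 3.98 with a pseudocount of 5 CPM and 4.69 from means per cell (381 CPM). With 3 instead of 5 xanthophore genes, also added later, 4 of 6 cells had *csf1ra* (299.6 CPM). With a minimum of 5 cells a kind and plate, 2, 0, 3 and 0 of the 5 closest genes were shared for *csf1a*, *csf1b*, *il34* and *csf1ra*.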
